A study of Mus musculus with 12 samples.

Results

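The 20 genes described here were nearly unread in wild-type (WT) primary mouse hepatocytes and clearly read in hepatocytes labelled Hnf4a KO. They were selected on measured values out of 55414 gene identifiers. A member had a mean below 0.5 CPM in each of the 2 WT groups, at least 3 CPM in each of the 3 vehicle-treated KO libraries, and a symbol other than that of a predicted Gm gene. CPM is the count of a gene per 1000000 counts of its library. Of all identifiers, 40775 lay under the WT ceiling in both WT groups. The reverse rule, with the genotypes exchanged, found 42 genes.

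RNA sequencing was done on primary hepatocytes, the liver's metabolic and secretory epithelium, in 4 groups of 3 libraries: Hnf4a KO with MJ041, Hnf4a KO with DMSO vehicle, WT with MJ041 and WT with DMSO vehicle. The series' title presents MJ041 as a candidate ligand in work on Hnf4a dysfunction in sepsis, and the compound is known here by its code name alone. Dose, time, strain, age, the means of deletion and the origin of the replicates are not given in the sources used here, so p-values measure the spread between these libraries, which may be technical. Library totals lay between 16740761 and 17902832 counts.

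HNF4A is a nuclear receptor that sits at the top of the transcription factor network of mature hepatocytes. It switches on genes of secretion and metabolism, and its loss in mouse liver is known to be followed by de-differentiation and by expression of genes normally used in other tissues or in dividing cells. Genes with near-zero transcripts in normal hepatocytes are thus one readout of such a state.

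Hnf4a (ENSMUSG00000017950) itself had 60.7, 76.4 and 67.7 CPM in KO libraries with MJ041, 62.3, 67.3 and 67.8 CPM in KO libraries with vehicle, 155.9, 170.4 and 142.6 CPM in WT libraries with MJ041, and 122.4, 136.7 and 113.8 CPM in WT libraries with vehicle. All KO libraries lay below all WT libraries, yet reads of the gene remained in KO. The log2 fold change, KO over WT with vehicle, was -0.92 ± 0.10 (SE, n = 3 each; adjusted p = 8.9e-06 by edgeR's quasi-likelihood test). Which exons were deleted is not stated. A value beside a gene outside the 20 is its log2 fold change ± SE in that comparison unless another quantity is named, and higher or lower means called at an adjusted p below 0.05. Among 14919 tested genes, 27.5% were called higher and 26.9% lower in KO with vehicle, and 26.8% higher and 27.6% lower in KO with MJ041. Of 15 tested hepatocyte markers, 1 was higher and 10 were lower in KO, with summed levels of 26877 to 27605 CPM in KO with MJ041, 26078 to 29183 CPM in KO with vehicle, 54823 to 65380 CPM in WT with MJ041 and 54188 to 58061 CPM in WT with vehicle. Hepatocyte transcripts were therefore abundant in every library. In RNA from many cells, fewer cells of a type and less RNA per cell cannot be told apart.

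All 20 members were separated by genotype in every library, which the rule fixed except for the KO libraries with MJ041. The share of all genes separated in this way was not counted. Their summed level was 216.1 to 222.0 CPM in KO with MJ041, 216.2 to 227.2 CPM in KO with vehicle, 4.92 to 5.95 CPM in WT with MJ041 and 4.66 to 5.17 CPM in WT with vehicle. The WT and KO vehicle libraries and the WT MJ041 libraries were used to choose the members, so their levels there are a description without a test. The KO libraries with MJ041 were not used by the rule. In them, 16 of the 20 genes reached 3 CPM in each of the 3 libraries. The other 4 were Kif14 at 2.27, 7.07 and 4.87 CPM, Ankle1 at 2.51, 6.27 and 4.93 CPM, Lgi3 at 5.14, 3.57 and 2.79 CPM, and Dthd1 at 4.54, 2.65 and 2.55 CPM.

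**Figure D1:**
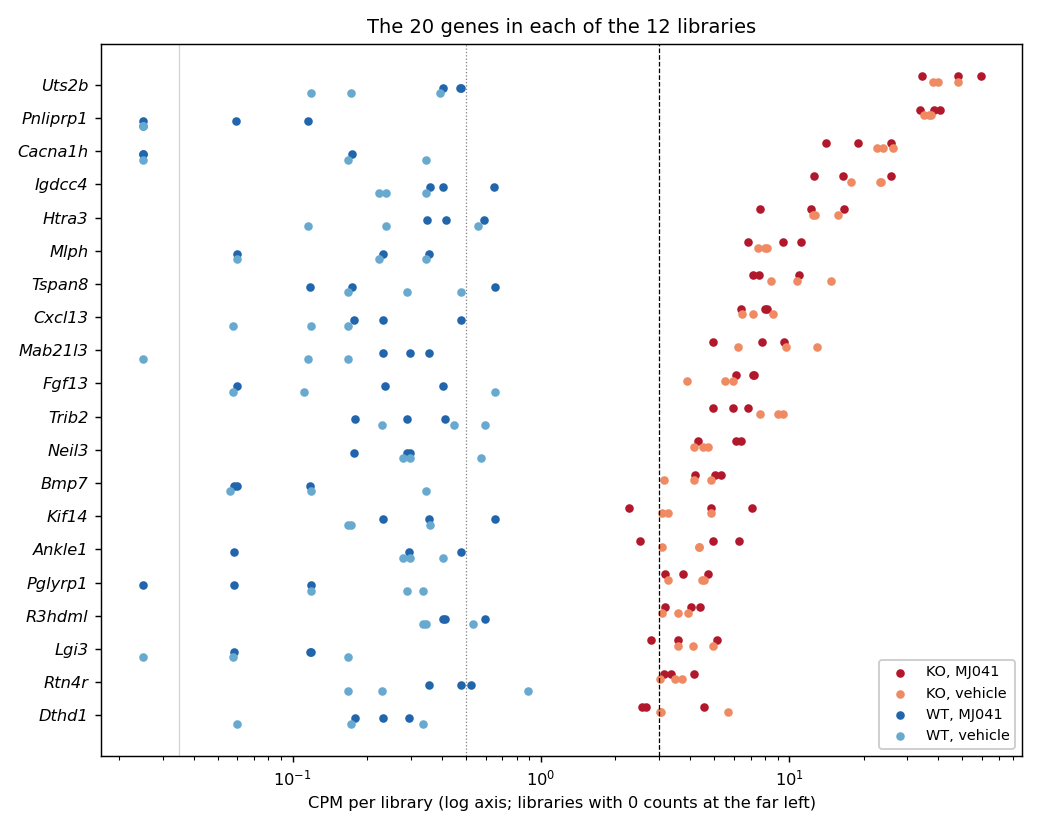
Each row is a gene and each point is 1 library, with CPM on a log axis; KO libraries with MJ041 or vehicle are red and orange, WT libraries with MJ041 or vehicle dark and light blue, and points left of the pale line have 0 counts. The dashed line is the floor of 3 CPM, the dotted line the WT ceiling of 0.5 CPM, which applies to group means. Every KO point lies to the right of every WT point of the same gene, which the rule fixed except for KO with MJ041.

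Low in WT did not mean absent. Of the 20 genes, 15 had reads in all 6 WT libraries and 5 had 0 counts in some of them. The highest single WT value was 0.892 CPM, for Rtn4r in 1 vehicle library. Zero counts occurred in 4 WT libraries for Pnliprp1, in 3 for Cacna1h, and in 1 each for Mab21l3, Pglyrp1 and Lgi3. A group with 0 counts over its 3 libraries allows up to 3 counts, or 0.0576 CPM in WT with vehicle, counting error only.

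The ratio of KO to WT, taken from the counts of each group scaled to its library totals, ranged from 8.05 to at least 630 with vehicle, with a median of 30.2. With MJ041 it ranged from 7.88 to 639, with a median of 27.2. Pnliprp1 had the highest ratio with either treatment and Rtn4r the lowest. These ratios follow from the selection and carry no test.

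Windows upstream of 4 members are printed here, those of Uts2b, Pnliprp1 and Cxcl13, which had the most CPM per kilobase of exon in KO with MJ041, and that of Igdcc4, which had the highest GC content. Each is the 250 bases before the annotated start (RefSeq, GRCm38.p6), read 5′ to 3′ on the strand of the gene, with motif matches on either strand in capitals. The window of Uts2b lies at chr16:27370240-27370489 on the minus strand, that of Pnliprp1 at chr19:58728637-58728886 on the plus strand, that of Cxcl13 at chr5:95956689-95956938 on the plus strand and that of Igdcc4 at chr9:65101236-65101485 on the plus strand.
Uts2b: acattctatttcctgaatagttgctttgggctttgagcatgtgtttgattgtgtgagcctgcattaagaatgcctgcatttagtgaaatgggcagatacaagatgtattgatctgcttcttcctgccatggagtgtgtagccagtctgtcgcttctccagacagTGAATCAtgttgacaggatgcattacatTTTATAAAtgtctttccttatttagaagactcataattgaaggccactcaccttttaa
Pnliprp1: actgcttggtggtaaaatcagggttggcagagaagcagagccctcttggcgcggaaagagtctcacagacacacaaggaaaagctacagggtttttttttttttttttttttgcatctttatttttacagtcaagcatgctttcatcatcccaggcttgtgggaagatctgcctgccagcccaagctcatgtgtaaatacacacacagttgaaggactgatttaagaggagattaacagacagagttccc
Cxcl13: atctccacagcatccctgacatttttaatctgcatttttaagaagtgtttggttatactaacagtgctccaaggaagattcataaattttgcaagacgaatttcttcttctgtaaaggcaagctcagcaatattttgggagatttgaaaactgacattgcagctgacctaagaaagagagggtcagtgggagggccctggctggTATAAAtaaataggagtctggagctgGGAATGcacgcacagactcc
Igdcc4: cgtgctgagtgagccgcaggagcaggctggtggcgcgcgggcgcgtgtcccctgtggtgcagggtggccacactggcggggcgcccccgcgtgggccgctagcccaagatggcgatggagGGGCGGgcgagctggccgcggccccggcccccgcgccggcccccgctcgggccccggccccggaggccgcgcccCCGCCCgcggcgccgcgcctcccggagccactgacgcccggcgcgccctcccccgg

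The Uts2b window holds an AP-1 match (TGANTCA) that begins 86 bases before the start and overlapping TATA matches (TATAAA), 1 on each strand, of which the one on the gene's own strand begins 56 bases before the start. In the Cxcl13 window a TATA match begins 46 bases and a TEAD match (CATTCC, here on the opposite strand) 20 bases before the start. The Igdcc4 window holds a GC box (GGGCGG) on each strand, 130 and 56 bases before the start, and the Pnliprp1 window none of the 7 motifs searched. The 4 windows thus differ in kind, from the GC-rich one of Igdcc4 to the A- and T-rich ones of Uts2b and Cxcl13.

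RefSeq windows of 300 bases, 250 before and 50 after the start, were found for 17 of the 20 members and gave 20 windows, since Fgf13 has 4. Their GC content had a median of 55.7%, with a range of 37% to 84.7%, against 52.7% over all 32851 windows and 60.0% over windows of tested genes. CpG observed over expected was at or above 0.6 in 7 of the 20 windows (35%), against 35.8% of all windows and 64.5% of those of tested genes. Each motif was sought on both strands. The AP-1 motif was in 2 windows (10%), against 7.81% of all windows and 5.81% of those of tested genes. TEAD was in 2 (10%), against 14.7% and 12.5%, and TATA in 3 (15%), against 13.6% and 8.29%. The GC box was in 10 windows (50%), above the 35.7% of all windows and below the 59.1% of those of tested genes. No window held the HNF4 motif CAAAGTCCA (0.475% of all and 0.535% of tested windows), the CREB motif TGACGTCA (1.79% and 2.86%) or the CArG box (1.63% and 1.36%). A match is a description of these letters and not a site.

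By where their proteins act, 8 of the 20 members are secreted, 4 lie in the membrane and 8 within the cell. The secreted group included the 3 transcripts with the highest level per length. Uts2b (ENSMUSG00000056423) encodes urotensin 2B, a short vasoactive peptide hormone. It had 34.3, 59.1 and 47.8 CPM in KO with MJ041, 38.0, 48.0 and 39.97 CPM in KO with vehicle, 0.406, 0.471 and 0.476 CPM in WT with MJ041 and 0.173, 0.119 and 0.391 CPM in WT with vehicle. The lowest KO library thus stood far above the highest WT library. The ratio of KO to WT was 182 with vehicle and 105 with MJ041. Its transcript is short, and per kilobase of exon it was the most abundant of the 20, at 56.4 CPM per kb in KO with MJ041, ahead of Pnliprp1 at 16.9, Cxcl13 at 6.55 and Tspan8 at 5.04 CPM per kb. Kif14 was lowest on that scale, at 0.457 CPM per kb. The receptor for urotensin peptides, Uts2r, had 0 counts in KO with MJ041, 1 in KO with vehicle, 1 in WT with MJ041 and 3 in WT with vehicle. The related hormone Uts2 was not called between KO and WT with vehicle (log2 fold change -0.93 ± 0.52, SE, n = 3 each; adjusted p = 0.15 by edgeR), and was lower in KO with MJ041 (-2.60 ± 0.61; adjusted p = 0.0029 by edgeR), with 13 counts in KO and 77 in WT.

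Pnliprp1 (ENSMUSG00000042179), the pancreatic lipase-related protein, had 40.5, 33.8 and 38.5 CPM in KO with MJ041, 37.3, 34.9 and 36.7 CPM in KO with vehicle, 0.116, 0.0589 and 0 CPM in WT with MJ041 and 0 CPM in each WT library with vehicle. Reads were absent from 4 of the 6 WT libraries, and the 6 KO libraries lay close together. Its counts over 3 libraries were 1888 in KO and 0 in WT with vehicle, a ratio of at least 630 with WT set to the 3-count floor. With MJ041 they were 1915 in KO and 3 in WT, a ratio of 639 (exact 95% interval 218 to 3102).

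Pnliprp1 is a product of the exocrine pancreas, so other acinar genes were read beside it. Of 22 acinar markers, Cpa1, Cpb1, Prss1, Prss2, Amy2a5, Try4, Ptf1a and Gp2 had 0 counts in all KO libraries. Pnlip, the main pancreatic lipase, had 0 and 1 counts in KO with MJ041 and with vehicle, and its cofactor colipase (Clps) the same. The markers other than Pnliprp1 summed to 15.6 to 19.9 CPM in KO with MJ041, 13.7 to 20.2 CPM in KO with vehicle, 7.18 to 8.75 CPM in WT with MJ041 and 9.04 to 11.3 CPM in WT with vehicle. Most of the KO sum was the transcription factor Bhlha15, at 11.8 CPM in KO and 2.94 CPM in WT with vehicle. Of the 3 tested list genes other than Pnliprp1, Bhlha15 was higher and the elastase gene Cela1 lower in KO with vehicle (-0.98 ± 0.21; 152 counts in KO and 301 in WT), and Ctrl was not called. The elastase gene Cela2a had 28 counts in KO and 3 in WT with vehicle, and Cela3b had 16 and 0, so the acinar genes other than Pnliprp1 did not share a direction.

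Htra3 (ENSMUSG00000029096), a secreted serine protease, had 16.7, 7.65 and 12.2 CPM in KO with MJ041, 12.8, 12.5 and 15.8 CPM in KO with vehicle, 0.348, 0.589 and 0.417 CPM in WT with MJ041 and 0.115, 0.238 and 0.559 CPM in WT with vehicle. The genotypes did not overlap, although the KO libraries with MJ041 differed more than 2-fold among themselves. Of its relatives, Htra1 was higher in KO with vehicle (log2 fold change 1.32 ± 0.31) and the mitochondrial protease Htra2 slightly higher (0.34 ± 0.08).

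Cxcl13 (ENSMUSG00000023078) encodes a chemokine that attracts B cells through the receptor CXCR5. Its levels were 8.18, 7.995 and 6.41 CPM in KO with MJ041, 8.63, 6.46 and 7.17 CPM in KO with vehicle, 0.232, 0.177 and 0.476 CPM in WT with MJ041 and 0.0576, 0.119 and 0.168 CPM in WT with vehicle. Cxcr5 was near 0, with 3 counts in KO and 7 in WT with vehicle, and lymphocyte and neutrophil markers summed to at most 2.96 CPM in any library. Of 10 other tested Cxcl genes, 5 were lower and 0 higher in KO with vehicle. Cxcl2 was lower (-3.61 ± 0.30), as were Cxcl5 (-2.09 ± 0.51), Cxcl14 (-1.75 ± 0.35), Cxcl9 (-1.32 ± 0.17) and Cxcl1 (-0.995 ± 0.27). With MJ041, 2 of the 10 were lower in KO, Cxcl2 (-2.97 ± 0.31) and Cxcl9 (-1.01 ± 0.17), and 2 were higher, Cxcl12 (0.62 ± 0.16) and Cxcl16 (0.45 ± 0.10). Whether the KO effect differed between treatments was not tested. Cxcl5 averaged 2.23 CPM in KO and 9.50 CPM in WT with vehicle, but 1.90 CPM in KO and 1.78 CPM in WT with MJ041. The Kupffer cell and macrophage markers summed to 489 to 529 CPM in KO and 264 to 539 CPM in WT with vehicle, and to 501 to 527 CPM in KO and 182 to 400 CPM in WT with MJ041. Of the 14 markers, all tested, 2 were higher and 1 was lower in KO with vehicle. Mpeg1 alone averaged 284 CPM in KO and 132 CPM in WT with vehicle. The part of these cells in the chemokine levels was not tested.

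The other secreted members lay close to the floor of the rule. Bmp7, a bone morphogenetic protein, averaged 4.85 ± 0.58 CPM in KO with MJ041 and 4.05 ± 0.85 CPM in KO with vehicle (SD, n = 3 each). Pglyrp1, which binds bacterial peptidoglycan, averaged 3.87 ± 0.79 and 4.09 ± 0.71 CPM in those groups, and R3hdml 3.86 ± 0.63 and 3.52 ± 0.42 CPM. Lgi3, a leucine-rich repeat protein studied mostly in the nervous system, averaged 3.83 ± 1.196 and 4.21 ± 0.69 CPM. WT means of these 4 genes lay below 0.5 CPM as the rule required.

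Bmp7 signals through type I and type II receptors of the BMP family. With vehicle, 5 of its receptor genes were lower in KO: Acvr1 (-0.77 ± 0.09), Acvr2b (-0.62 ± 0.17), Bmpr2 (-0.33 ± 0.05), Acvr2a (-0.33 ± 0.09) and Bmpr1a (-0.21 ± 0.06). Of the secreted BMP antagonists, Chrd was higher (0.96 ± 0.22) and Grem1 lower, with 0 counts in KO and 69 in WT. Among usual targets of the pathway, Id2 (1.22 ± 0.12) and Id1 (0.72 ± 0.14) were higher, Smad7 was lower (-0.24 ± 0.08), and Id3 and Smad6 were not called. With MJ041, Id3 was higher (0.34 ± 0.11) and Smad7 was not called. Of the other tested ligands with vehicle, Bmp6 was higher (1.07 ± 0.08), while Bmp8b (-2.28 ± 0.09) and Bmp8a (-5.22 ± 0.51) were lower. Bmp8a had 6 counts in KO and 238 in WT. The ligands Bmp2, Bmp4, Bmp5 and Bmp10 were not called.

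In the membrane group, Cacna1h (ENSMUSG00000024112) encodes the pore subunit of a T-type calcium channel. It had 25.7, 14.1 and 19.1 CPM in KO with MJ041, 24.0, 22.6 and 26.3 CPM in KO with vehicle, 0.174, 0 and 0 CPM in WT with MJ041 and 0.346, 0 and 0.168 CPM in WT with vehicle. The KO to WT ratio was 141 with vehicle and 333 with MJ041 (exact 95% interval 114 to 1616, from 3 WT counts). The other T-type subunits stayed near 0: Cacna1g had 3 counts in KO and 3 in WT with vehicle, and Cacna1i had 4 and 7. The L-type subunit Cacna1c, which missed the rule because its MJ041-treated WT libraries averaged 0.647 CPM, stood at 19.9 CPM in KO and 0.313 CPM in WT with vehicle (log2 fold change 5.97 ± 0.39; adjusted p = 8.9e-08 by edgeR), and Cacna1s was higher at a low level (3.80 ± 1.02). The gene Tpsg1 overlaps Cacna1h exons on the opposite strand and had 0 counts throughout.

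Igdcc4 (ENSMUSG00000032816), an immunoglobulin superfamily receptor of the DCC subclass, had 25.7, 12.6 and 16.6 CPM in KO with MJ041, 23.4, 17.8 and 23.3 CPM in KO with vehicle, 0.406, 0.648 and 0.357 CPM in WT with MJ041 and 0.346, 0.238 and 0.223 CPM in WT with vehicle. The protein is known in mouse from fetal liver progenitor cells. Its relative Igdcc3 had 3 counts in KO and 1 in WT with vehicle, Dcc had 0, and the related receptor Neo1 was lower in KO (-0.37 ± 0.07).

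Tspan8 (ENSMUSG00000034127), a tetraspanin of epithelia, had 7.17, 11.0 and 7.60 CPM in KO with MJ041, 8.46, 14.8 and 10.8 CPM in KO with vehicle, 0.174, 0.118 and 0.655 CPM in WT with MJ041 and 0.288, 0.476 and 0.168 CPM in WT with vehicle. Of 14 other tested tetraspanin genes, 4 were higher in KO with vehicle, with the smallest p for Tspan17 (1.70 ± 0.12) and Tspan4 (0.93 ± 0.07), and 4 were lower, with the smallest p for Tspan14 (-1.16 ± 0.12). Tspan8 is also on the list of markers of bile duct cells, the cholangiocytes. Of the 9 tested members of that list other than Tspan8, 6 were higher and 1 was lower in KO with vehicle. Those higher included Krt19 (3.27 ± 0.13), Bicc1 (2.66 ± 0.20), Cd24a (2.47 ± 0.29), Prom1 (2.08 ± 0.22) and Cldn4 (1.30 ± 0.19), and Sox9 (-0.73 ± 0.12) was lower. With MJ041, Cldn4 was not called (-0.08 ± 0.19). Krt7 averaged 0.173 CPM in KO and 0.214 CPM in WT with vehicle. The list without Tspan8 summed to 515 to 718 CPM in KO with MJ041, 578 to 719 CPM in KO with vehicle, 305 to 441 CPM in WT with MJ041 and 408 to 632 CPM in WT with vehicle. Much of this sum was Spp1, which was not called with either treatment. Spp1 averaged 247 CPM in KO and 365 CPM in WT with vehicle, and 234 CPM in KO and 125 CPM in WT with MJ041. The part of bile duct cells in the Tspan8 level was not tested.

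Rtn4r, the Nogo receptor, averaged 3.54 ± 0.53 CPM in KO with MJ041 and 3.40 ± 0.34 CPM in KO with vehicle (SD, n = 3 each), with the smallest ratio to WT of the 20. Its ligand gene Rtn4 was lower in KO (515.5 CPM in KO and 667.5 CPM in WT with vehicle; log2 fold change -0.38 ± 0.06). The co-receptor Tnfrsf19 was higher (2.35 ± 0.20), as was the paralog Rtn4rl1 (1.13 ± 0.14). Of the other co-receptors, Lingo1 was not called (0.88 ± 0.53), and Ngfr had 2 counts in KO and 5 in WT with vehicle. The ligand gene Mag had 9 counts in KO and 11 in WT with vehicle, and Omg had 0. The untested paralog Rtn4rl2 had 18 and 6 counts.

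Among the members that act inside the cell, Mlph (ENSMUSG00000026303) encodes melanophilin, which links the small GTPase RAB27A on melanosomes to the motor myosin Va. It had 6.81, 11.2 and 9.44 CPM in KO with MJ041, 7.52, 8.02 and 8.14 CPM in KO with vehicle, 0.232, 0.354 and 0.0595 CPM in WT with MJ041 and 0.346, 0.0595 and 0.223 CPM in WT with vehicle. Both partners of the complex were also higher in KO with vehicle, Rab27a by 1.24 ± 0.14 and Myo5a by 0.68 ± 0.08 on the log2 scale.

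Fgf13 (ENSMUSG00000031137) belongs to the fibroblast growth factor homologous factors, which are not secreted and bind voltage-gated sodium channels. It had 6.09, 7.19 and 7.24 CPM in KO with MJ041, 5.95, 3.87 and 5.52 CPM in KO with vehicle, 0.406, 0.236 and 0.0595 CPM in WT with MJ041 and 0.0576, 0.654 and 0.112 CPM in WT with vehicle. Each KO library with MJ041 stood above each KO library with vehicle. The other members of that subfamily, Fgf12 and Fgf14, had 0 counts, and Fgf11 had 24 in KO and 20 in WT with vehicle.

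Trib2 (ENSMUSG00000020601) encodes a pseudokinase that brings the ubiquitin ligase COP1 to the transcription factor C/EBP-alpha. It had 5.97, 4.95 and 6.83 CPM in KO with MJ041, 9.45, 7.67 and 8.996 CPM in KO with vehicle, 0.290, 0.413 and 0.179 CPM in WT with MJ041 and 0.230, 0.595 and 0.447 CPM in WT with vehicle. Its relatives Trib1 (-0.64 ± 0.06) and Trib3 (-0.69 ± 0.10) were lower in KO with vehicle. Cebpa was also lower (-0.86 ± 0.09), and Cop1 was not called (-0.01 ± 0.08). These are RNA levels, and the C/EBP-alpha protein on which TRIB2 acts was not measured in these data.

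Neil3, Kif14 and Ankle1 act on chromosomes or in cell division. Neil3 (ENSMUSG00000039396), a DNA glycosylase, had 4.30, 6.38 and 6.11 CPM in KO with MJ041, 4.14, 4.73 and 4.50 CPM in KO with vehicle, 0.290, 0.177 and 0.298 CPM in WT with MJ041 and 0.576, 0.297 and 0.279 CPM in WT with vehicle. The glycosylases Neil1 and Neil2 were not called. Kif14, a kinesin of cytokinesis, averaged 4.74 ± 2.41 CPM in KO with MJ041 and 3.73 ± 0.97 CPM in KO with vehicle (SD, n = 3 each), and the endonuclease Ankle1 4.57 ± 1.91 and 3.91 ± 0.71 CPM. Both partners of KIF14 at the midbody were higher in KO with vehicle, Cit by 3.73 ± 0.34 and Prc1 by 1.28 ± 0.20 on the log2 scale.

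Mab21l3 (ENSMUSG00000044313) had 9.56, 4.95 and 7.78 CPM in KO with MJ041, 6.24, 12.9 and 9.74 CPM in KO with vehicle, 0.232, 0.354 and 0.298 CPM in WT with MJ041 and 0.115, 0 and 0.168 CPM in WT with vehicle. In KO, its highest library exceeded its lowest by 1.93-fold with MJ041 and by 2.07-fold with vehicle, a wider spread than that between the means of 7.43 CPM with MJ041 and 9.63 CPM with vehicle. Dthd1, a death domain protein, averaged 3.25 ± 1.12 CPM in KO with MJ041 and 3.91 ± 1.51 CPM in KO with vehicle (SD, n = 3 each).

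The next comparison set MJ041 against vehicle in KO cells. The vehicle libraries chose the members, since each had to reach the floor there, and the MJ041 libraries did not. A gene near the floor whose vehicle libraries happened to read high was thus more likely to be kept, which can bias the members' fold changes downward, so their values are a description and no independent test. Over all 14919 tested genes edgeR's quasi-likelihood test called 0 genes (0%; smallest adjusted p = 1), with 414 (2.77%) at an unadjusted p below 0.05. All 20 members were tested, 0 were called, and Trib2 alone had an unadjusted p below 0.05. Trib2 averaged 5.92 ± 0.94 CPM with MJ041 and 8.71 ± 0.92 CPM with vehicle (SD, n = 3 each), with all MJ041 libraries below all vehicle libraries. Its log2 fold change was -0.56 ± 0.20 (SE, n = 3 each; adjusted p = 1 by edgeR).

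The 20 log2 fold changes lay between -0.56 and 0.42, 11 above and 9 below 0, with a median of 0.04 against 0.01 over all tested genes. After Trib2, the smallest unadjusted p-values belonged to Neil3 (0.33 ± 0.21), Tspan8 (-0.41 ± 0.29), Mab21l3 (-0.38 ± 0.29) and Cacna1h (-0.31 ± 0.24). Single libraries moved some of these values. Without KO vehicle replicate 2, Mab21l3 was at -0.09 and Tspan8 at -0.15, and without KO vehicle replicate 1 Mab21l3 was at -0.63. Mab21l3 was at -0.61 without MJ041 replicate 1 and at -0.17 without MJ041 replicate 2. Tspan8 was at -0.64 without MJ041 replicate 2. Cacna1h was at -0.55 without MJ041 replicate 1 and at -0.13 without MJ041 replicate 2. Neil3 was at 0.21 without MJ041 replicate 2. Pnliprp1 stood at 0.05 ± 0.10 and Uts2b at 0.16 ± 0.17, and the median standard error of the 20 was 0.25.

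**Figure D2:**
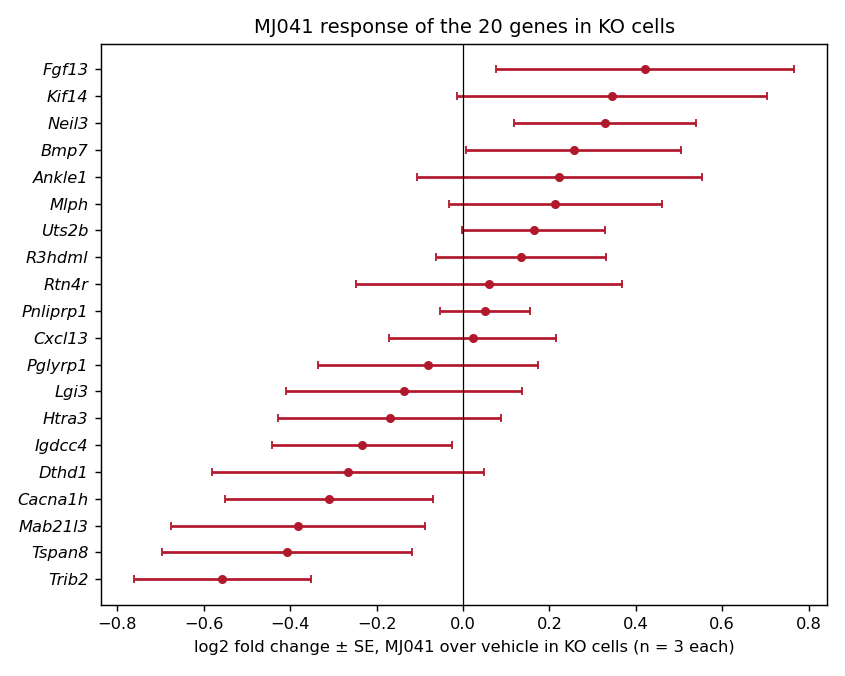
Points are the log2 fold changes of the 20 genes, MJ041 over vehicle in KO cells, and bars are ± 1 SE from the fit to all 12 libraries (n = 3 per group). Values run from 0.42 (Fgf13) to -0.56 (Trib2), on both sides of 0.

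Among themselves, the members did not vary as one block. In KO with MJ041, 7 genes were highest in replicate 1 and lowest in replicate 2: Pnliprp1, Cacna1h, Igdcc4, Htra3, Mab21l3, Bmp7 and Pglyrp1. The reverse order, highest in replicate 2 and lowest in replicate 1, was found in Uts2b, Mlph, Tspan8, Neil3, Kif14 and Ankle1, 6 genes. Of the 11 members with more CPM in replicate 1 than in replicate 2 in KO with MJ041, 8 had the same order in KO with vehicle. Of the 9 with the opposite order, 7 had that order there too. The share of all tested genes that kept their order was not counted. Over all tested genes, the same-numbered KO libraries correlated at 0.349 for replicate 1 and 0.458 for replicate 2. A shared order is thus not shown to be particular to the members. The highest library exceeded the lowest by a median of 1.59-fold with MJ041 and 1.33-fold with vehicle, and by at most 3.12-fold (Kif14 with MJ041). Summed cholangiocyte markers in KO with MJ041 were 515, 718 and 588 CPM in replicates 1, 2 and 3, and summed acinar markers 19.9, 15.8 and 15.6 CPM. Neither order was particular to its list. Stellate cell markers (169, 195 and 186 CPM) and sinusoidal endothelial markers (264, 302 and 280 CPM) were also lowest in replicate 1 and highest in replicate 2. Intestinal markers, at 117, 101 and 111 CPM, were highest in replicate 1. The part of cell content in the orders of the members was not tested.

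**Figure D3:**
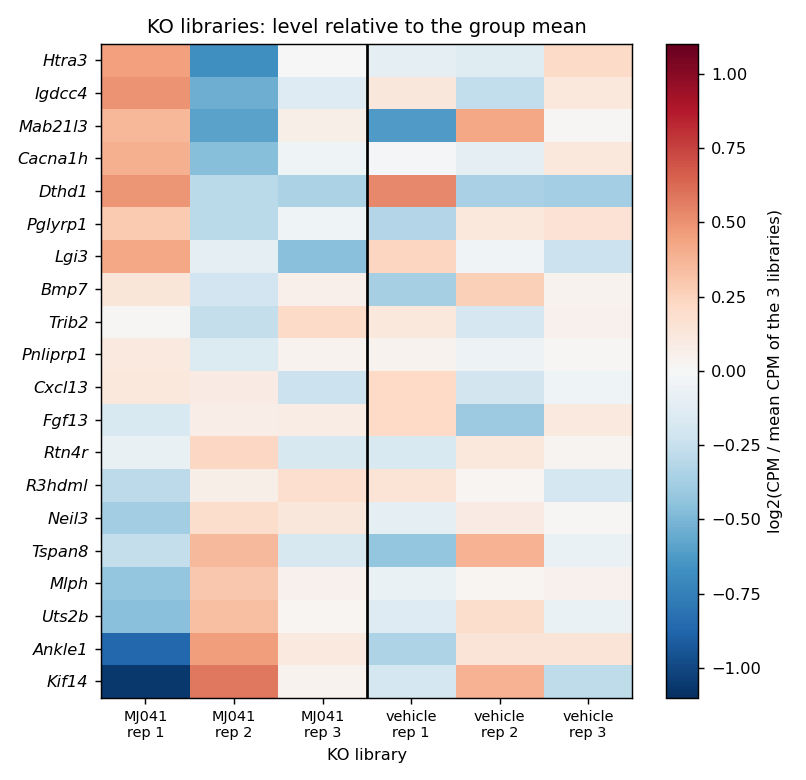
Each cell is the log2 ratio of a gene's CPM in 1 KO library to its mean over the 3 libraries of that treatment, MJ041 left and vehicle right of the black line, with genes ordered by replicate 1 minus replicate 2 with MJ041. Htra3 and Igdcc4 at the top are high in MJ041 replicate 1, and Kif14 and Ankle1 at the bottom are low there.

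The rule's limits ran through a continuous range of values. Just inside the KO floor were Dthd1, Rtn4r, R3hdml, Kif14 and Ankle1, whose lowest vehicle-treated KO libraries had 3.02, 3.03, 3.07, 3.07 and 3.09 CPM. Just outside were Cnn1, a smooth muscle calponin that missed the floor by less than 0.01 CPM, E130310I04Rik at 2.60, Trdv4 at 2.57, Neurl1b at 2.48 and Ly6k at 2.33 CPM. Cnn1 belongs to a list of striated and smooth muscle markers, of which 4 of 9 tested genes were higher and 1 was lower in KO with vehicle, Tpm2 (6.71 ± 0.30) and Cnn1 (5.28 ± 0.47) among the 4. Sorl1, Tenm4, Parm1, Prr11 and Fgfbp1 met the KO floor and missed the WT ceiling narrowly, with a higher WT group mean of 0.517, 0.537, 0.588, 0.6004 and 0.610 CPM.

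Genes near the members on the chromosome were compared next. In the RefSeq gene order, no member lay next to another. The nearest tested gene on each side gave 40 genes outside the set, of which 7 (17.5%) were higher and 13 (32.5%) lower in KO with vehicle, against 27.5% higher and 26.9% lower of all tested genes. Their median log2 fold change was -0.17. Other annotated genes often lay between a member and its nearest tested gene, as many as 46 between Cxcl13 and Ccng2. The rises with the smallest p were Aga near Neil3 (1.38 ± 0.08), Gfra1 near Pnliprp1 (1.16 ± 0.13) and Dpp8 near Igdcc4 (0.51 ± 0.06). Between these genes and their members lay 1, 9 and 1 annotated genes, in that order. The falls with the smallest p were Prodh near Rtn4r (-1.28 ± 0.08), F9 near Fgf13 (-0.96 ± 0.07) and Gm20319 near Uts2b. Gm20319 had 2 counts in KO and 200 in WT with vehicle. Here 1, 7 and 4 annotated genes lay between, in that order. R3hdml has Hnf4a itself as its nearest tested neighbour on one side, with 1 annotated gene between them. R3hdml averaged 3.52 ± 0.42 CPM in KO and 0.405 ± 0.11 CPM in WT with vehicle (SD, n = 3 each), while Hnf4a was lower in KO. The rule fixed the direction of R3hdml, and Hnf4a is the gene labelled KO, so the opposite directions carry no test. The antisense gene Hnf4aos, which overlaps R3hdml without sharing exons, had 0.0382 CPM in KO and 0.157 CPM in WT with vehicle.

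Relatives were taken as tested genes that share the letters of a member's symbol before the first digit, which includes a few that share letters only, such as Bmp2k. Symbols without a digit, with fewer than 3 such letters, or with letters shared by more than 40 genes were not searched. Of 55 relatives, 10 (18.2%) were higher and 22 (40%) lower in KO with vehicle, with a median log2 fold change of -0.38. Of all tested genes, 27.5% were higher and 26.9% lower. The rises with the smallest p were Cacna1c, Tspan17 and Tspan4, and the falls Bmp8b, Cxcl2 and Trib1, whose values are given above. These 55 genes belong to 12 of the members, and the other 8 had none under this rule. Among those 8, Kif14 (letters shared by 42 genes), R3hdml and Mlph were not searched, so kinesin genes are not in the count. With MJ041, 13 of the 55 relatives were higher and 16 lower in KO, and among the 40 neighbours 9 were higher and 19 lower. The shares of all tested genes with MJ041 were 26.8% higher and 27.6% lower. Of 58 ligands, receptors, paralogs and other partners listed for the members, 32 were tested. With vehicle, 11 (34.4%) were higher and 13 (40.6%) lower, with a median of -0.05, against 27.5% and 26.9% of all tested genes.

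**Figure D4:**
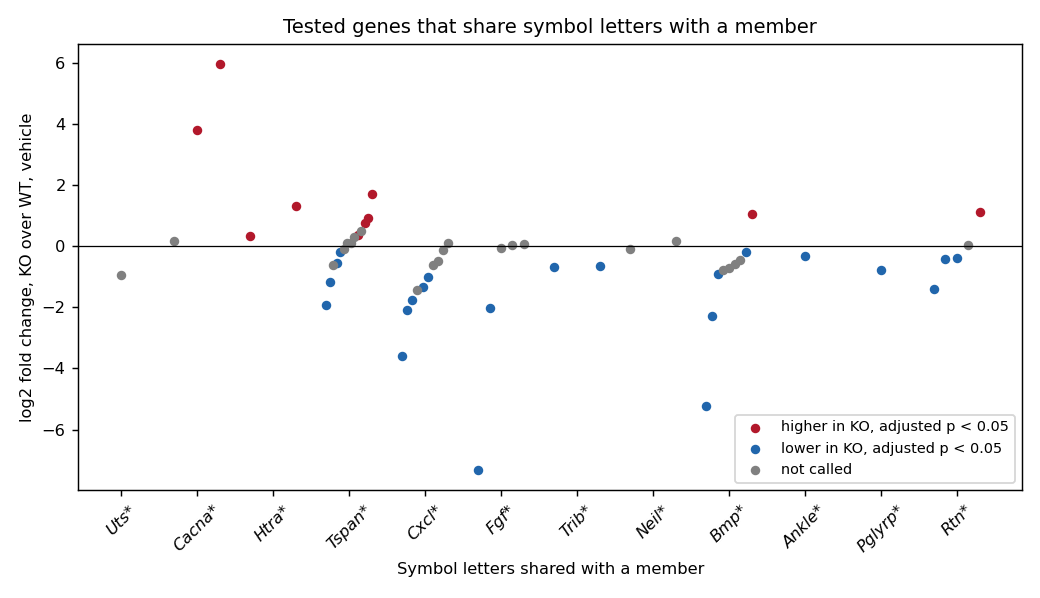
Each point is a tested gene outside the 20 that shares symbol letters with a member, placed by those letters and by its log2 fold change, KO over WT with vehicle (n = 3 each); red is higher in KO, blue is lower and grey is not called at an adjusted p of 0.05. Of the 55 points, 10 are red and 22 are blue, and no Cxcl point is red.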

How the data were processed

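RNA was extracted with a column kit, made into stranded libraries and read on an Element AVITI sequencer, per the labels' protocols. The deposited table holds raw read counts per gene, which the authors left without normalization; STAR 2.7.10b, Trimmomatic 0.34, featureCounts, FastQC, DESeq2 and mm39 are listed in the submitters' processing notes. Strand and multimapping settings are not given in the sources used here. Symbols were matched for 52081 of 55414 identifiers. Up to 0.274% of the counts in any library fell on identifiers with no symbol.

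The 12 libraries (R 4.3.3, edgeR 4.0.16, limma 3.58.1) were filtered by filterByExpr with a minimum count of 10, scaled by TMM and fitted by edgeR's quasi-likelihood model with 1 coefficient per group. P-values were adjusted by Benjamini-Hochberg over 14919 genes (threshold 0.05), and SE was taken as |log2 fold change|/√F. The script was tested on simulated data. DESeq2 1.42.0 was an alternative. Exon lengths came from GENCODE and gene order and promoters from RefSeq, both of GRCm38.p6, matched by symbol. Intervals and floors cover counting error only: no molecular identifiers are named, and PCR copies of a molecule count separately. No 2 libraries of a group agreed within sampling noise.

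The members, lists and tests were chosen with earlier results of these data known, and the partner list after the members were known. Genes given in full are Hnf4a and the 12 members with the highest mean in KO with MJ041; others named are the 5 members with the smallest p for MJ041, the 5 genes nearest each limit, the 3 rises and 3 falls of smallest p among neighbours and relatives, list and partner genes, and genes chosen after their values were seen (the tetraspanins, Cxcl, Bmp and calcium channel genes beyond those 3).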

Additional observations from a re-analysis of the deposited data

How the results depend on the processing

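The number of genes selected depends on its limits. A floor of 5 CPM left 10 genes, a WT ceiling of 0.25 CPM 7, and a ceiling of 1 CPM 58, against 20; the 10 and the 7 are all among the 20. Those at the floor in each KO library with MJ041 numbered 8, 5 and 48, and 26 with a floor of 2 CPM, against 16. Leaving out single libraries gave 16 to 28 selected genes, with the highest number without KO vehicle replicate 2. For MJ041 in KO, DESeq2 called 1 gene, Cyp1a1 (log2 fold change 0.73, adjusted p = 0.035 by DESeq2; named after its value was seen), and edgeR without a filter on low counts called 15, against 0. None of the alternatives called a member, and the median change of the 20 lay between -0.04 and 0.06 over the left-out libraries. The replicate block called 0 genes for MJ041 in KO, and with it 17 neighbours were lower in KO against 13, while 7 were higher. Same-numbered libraries of the 2 KO groups correlated at 0.349, 0.458 and 0.039. The sources used here do not say whether equal numbers share an origin, and the main model did not pair them. Of the libraries, 3 of 3 with MJ041 and 2 of 3 with vehicle correlated best with their own number. The 5 members named for MJ041 kept their sign under the 17 alternatives run for each, but left-out libraries moved Mab21l3 between -0.63 and -0.09, Tspan8 between -0.64 and -0.15, Cacna1h between -0.55 and -0.13, Neil3 between 0.21 and 0.49 and Trib2 between -0.68 and -0.45. Depth limits the genes near the floor most: Dthd1 rested on 203 counts over the 3 KO libraries with vehicle.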
